A study of Mus musculus with 96 samples.

Results

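Liver macrophages of 2 labelled genotypes, RevScapTKO and RevDKO, were compared in the light phase of the day. The comparison held 12 of the 96 bulk RNA sequencing libraries, taken by their labels: 6 RevScapTKO and 6 RevDKO libraries, with 3 of each at zeitgeber time 4 (ZT4, counted in hours from lights on) and 3 of each at ZT10. The mice were adult C57BL/6J males kept for 4 weeks on an obesogenic high fat and sucrose diet. RevDKO mice carried floxed alleles of Nr1d1 and Nr1d2, the genes of REV-ERBα and REV-ERBβ, and RevScapTKO mice carried these and floxed Scap as well. Both had received an adeno-associated virus that expresses Cre under the TBG promoter, which is active in hepatocytes, so that the deletions were directed to hepatocytes and not to the macrophages measured. Control mice with floxed alleles had received the same virus with GFP in place of Cre, and their 6 light-phase macrophage libraries are given as the background level. Both groups compared thus share the REV-ERB deletion, and the comparison asks what the additional loss of hepatocyte SCAP changes in macrophages of the same liver.

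SCAP is an escort protein of the endoplasmic reticulum. When sterols are low it carries the precursors of the transcription factors SREBP1 and SREBP2 to the Golgi, where proteases release the active factors, while INSIG proteins hold SCAP back when sterols are plentiful. SREBP1 mainly drives fatty acid synthesis and SREBP2 mainly drives cholesterol synthesis and uptake, and the liver is a main site of both. Liver macrophages comprise resident Kupffer cells, which clear particles and old red cells from the blood, and cells recruited from blood monocytes, some of which take on a lipid-associated state in fatty liver.

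Levels are given in RPKTM, an RPKM value (reads per kilobase of transcript and depth of library) scaled up by a factor of 10 and quantile normalized by the authors, and each difference is RevScapTKO minus RevDKO on the log2(RPKTM + 1) scale with its standard error. In the hepatocyte libraries of the same genotypes and times Scap followed its label, at 82.8 to 299 RPKTM in RevScapTKO against 321 to 733 in RevDKO. Nr1d1 and Nr1d2 did not follow theirs: in Control hepatocyte libraries the median was 107 RPKTM for Nr1d1 and 368 for Nr1d2, beside 186 and 399 in RevDKO and 177 and 379 in RevScapTKO. These are levels over the whole transcript and do not show a deleted exon, and every direction below is between libraries as labelled. One library, RevDKO ZT10 replicate 2, stood apart from the other 11, with a median correlation to them of 0.767 against 0.809 to 0.894 for the others.

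The macrophage label was checked against 14 macrophage markers, of which all 14 were high enough to test and 0 passed the test between the genotypes. Their summed level was 9460 to 38062 RPKTM in RevDKO and 7895 to 39242 in RevScapTKO libraries. The 16 hepatocyte markers, such as albumin, were also all high enough to test and summed to more, 76566 to 145497 RPKTM in RevDKO and 52211 to 143631 in RevScapTKO libraries. Transcripts of hepatocyte genes were thus abundant in each of the 12 libraries. The mean log2 level over the hepatocyte markers was 11.24 ± 0.295 (SD, n = 6) in RevDKO, 10.76 ± 0.481 (n = 6) in RevScapTKO and 11.14 ± 0.209 (n = 6) in Control libraries. In such bulk samples fewer cells of a type and less RNA per cell cannot be told apart.

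Loss of SCAP in hepatocytes was accompanied in the macrophage libraries by a fall of lipid synthesis genes and by a rise of a small, mixed group of genes. Of 12293 genes tested with limma, 93 (0.757%) were past an adjusted p of 0.05: 70 (0.569%) were lower and 23 (0.187%) were higher in RevScapTKO. The rises ran from 1.19 to 7.61 and the falls given with a value here from -5.11 to -1.19, while the median of all genes was 0.03. At an unadjusted p under 0.05 there were 1048 of the 12293 genes. The 6 libraries of 1 genotype did not overlap the 6 of the other in 61 of the 70 falls and 11 of the 23 rises. Over all genes tested, 92 (0.748%) lay lower without overlap and 41 (0.334%) lay higher without overlap. With the hepatocyte marker score as a covariate the calls were 171, of which 67.8% were higher, against 24.7% higher without it, and 61 of the 93 genes were among them. The count was 56 without RevDKO ZT4 replicate 3, 58 without RevDKO ZT10 replicate 3, 61 without RevScapTKO ZT4 replicate 2 and 56 without RevScapTKO ZT10 replicate 2. Without RevScapTKO ZT10 replicate 1, which had the lowest hepatocyte marker score of the 12 (9.91), the calls were 133, of which 61 were higher and 72 lower (45.9% higher). Without the filter on low values it was 46, with 37.0% higher, and in a fit of all 36 macrophage libraries of the table it was 113, with 37.2% higher.

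**Figure D1:**
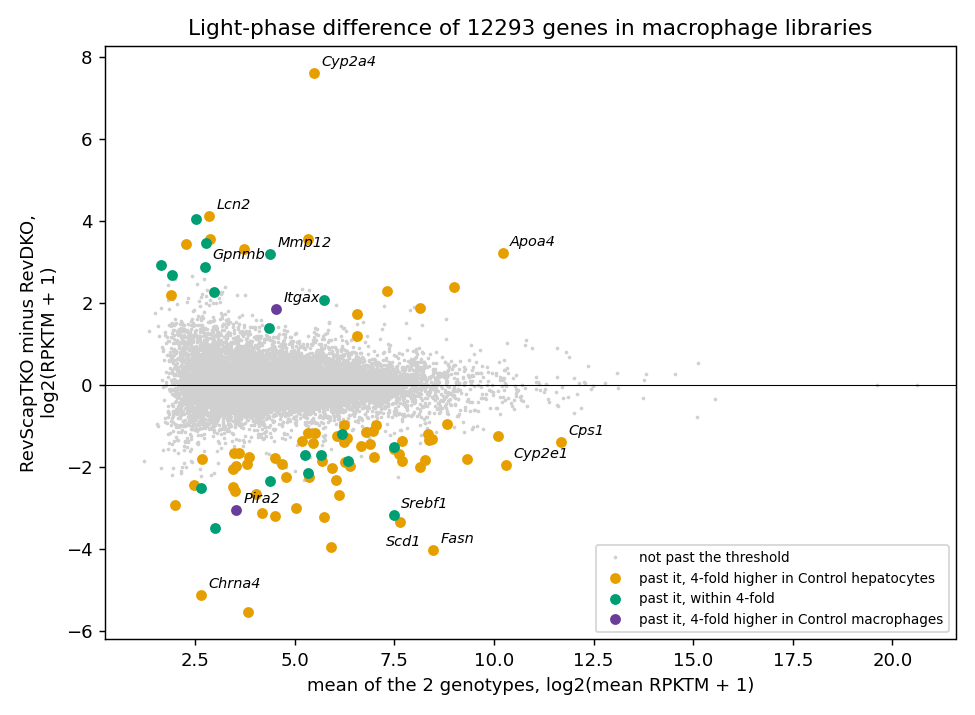
Difference of each of 12293 genes in light-phase macrophage libraries (RevScapTKO minus RevDKO, vertical axis, log2(RPKTM + 1)) against its mean level over both genotypes (horizontal axis, log2 of the mean RPKTM + 1), with the 93 genes past the limma threshold coloured by where they are higher in Control libraries. The differences of Chrna4 and Cyp2a4 stand at -5.11 and 7.61, and most coloured points belong to genes that are at least 4-fold higher in Control hepatocytes.

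The gene that encodes SREBP1 itself was among the falls. Srebf1 (mm9 chr11:60012586-60034129, minus strand) was at 402, 517 and 697 RPKTM (lowest, median and highest library) in RevDKO and at 44.2, 60.3 and 72.2 in RevScapTKO. The groups were far apart, and Control libraries, at 368 to 880 RPKTM, lay with RevDKO. The difference was -3.18 (SE 0.199, limma adjusted p = 2.72e-07). Insig1, which encodes a sterol-regulated anchor of SCAP and is itself an SREBP target, was at 69.1, 202 and 238 RPKTM in RevDKO and at 10.9, 23.2 and 43.5 in RevScapTKO, again without overlap (-2.69, SE 0.316, adjusted p = 0.000357).

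The other 5 of the 7 genes of the SREBP activation machinery were not past the threshold. Scap, the gene deleted in hepatocytes, was at 90.3, 147 and 249 RPKTM in RevDKO and at 78.9, 109 and 136 in RevScapTKO macrophage libraries, which overlapped (-0.47, SE 0.265, adjusted p = 0.678). Srebf2, which encodes SREBP2, differed by -0.42 (SE 0.298, adjusted p = 0.758). Insig2, the second anchor, differed by 0.12, and the protease genes Mbtps1 and Mbtps2 by 0.43 and 0.13, with adjusted p from 0.679 to 0.959.

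Among 18 fatty acid synthesis genes of the SREBP pathway, 8 were lower and 0 were higher, with a median difference of -1.32 over the list. Fasn (mm9 chr11:120667272-120685861, minus strand), which encodes fatty acid synthase, was at 1113, 1367 and 1863 RPKTM in RevDKO and at 63.5, 83.9 and 138 in RevScapTKO libraries. No other gene tested had a smaller p (-4.03, SE 0.220, limma adjusted p = 7.35e-08), and the difference was -4.02 at ZT4 and -4.04 at ZT10. Scd1, the desaturase that makes monounsaturated fatty acids, was at 220, 544 and 965 against 17.9, 48.0 and 166 RPKTM, so that its highest RevScapTKO library lay just under its lowest RevDKO library (-3.35, SE 0.393, adjusted p = 0.000357). Thrsp, a lipogenic regulator, fell from 118, 179 and 291 to 2.43, 8.83 and 60.5 RPKTM (-3.96, adjusted p = 0.000357).

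The remaining called members have other roles in lipid synthesis. Slc25a1, the mitochondrial citrate exporter, fell by 1.36 and Acss2, which makes acetyl-CoA from acetate, fell by 2.32. Acacb, an acetyl-CoA carboxylase, fell by 2.99, and Mid1ip1, which promotes the activity of the carboxylases, fell by 2.35. Fads1, a desaturase of polyunsaturated fatty acids, fell by 1.29. Members that did not pass included Acly at -0.93 (adjusted p = 0.062), Acaca at -0.76 (0.23), Elovl6 at -0.57 (0.778) and Me1 at -0.06 (0.983). Leaving out 1 library at a time gave 5 to 9 lower genes in this list.

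Among the 21 cholesterol synthesis and uptake genes that were detected well enough to test, of 23 listed, all 21 differences were negative, 11 were past the threshold and the median was -1.85. Called members spanned the route from mevalonate to the late sterols. They included Mvk (-1.97), Fdps (-2.65), Sqle (-3.19), Lss (-2.23), Cyp51 (-2.24), Tm7sf2 (-2.58), Msmo1 (-1.92) and Nsdhl (-2.48), which encode enzymes from mevalonate kinase onward. Lss, the cyclase that forms the sterol ring system, was at 43.7, 56.8 and 83.8 RPKTM in RevDKO and at 9.53, 10.7 and 16 in RevScapTKO libraries, without overlap (limma adjusted p = 0.000193). Sqle, squalene epoxidase, was at 21.3, 60.2 and 167 against 0.564, 7.98 and 8.86 RPKTM (adjusted p = 0.00241), and Cyp51, which removes a methyl group from lanosterol, was at 48.5, 76.3 and 157 against 7.11, 19.7 and 28.9 (0.000472). Neither had overlapping groups. Members that did not pass included Dhcr7 at -1.47 (adjusted p = 0.14) and Fdft1 at -0.78 (0.41).

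Over the 3 SREBP lists together, 21 of 46 genes were lower, 0 were higher and 42 differences were negative, with a median of -1.47 against 0.03 over all genes tested. Over all 12293 genes tested, 70 (0.569%) were lower. The groups did not overlap for 19 of the 21, beside 61 of all 70 falls. Over all genes tested, 92 (0.748%) lay lower without overlap. Leaving out 1 library at a time gave 18 to 23 lower genes, and the fit with the hepatocyte marker score gave 20. Acsl3, an acyl-CoA synthetase on no SREBP list, fell by 1.76, but it overlaps the called gene Utp14b by 9777 bases on the same strand, so the reads of the pair cannot be separated here.

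**Figure D2:**
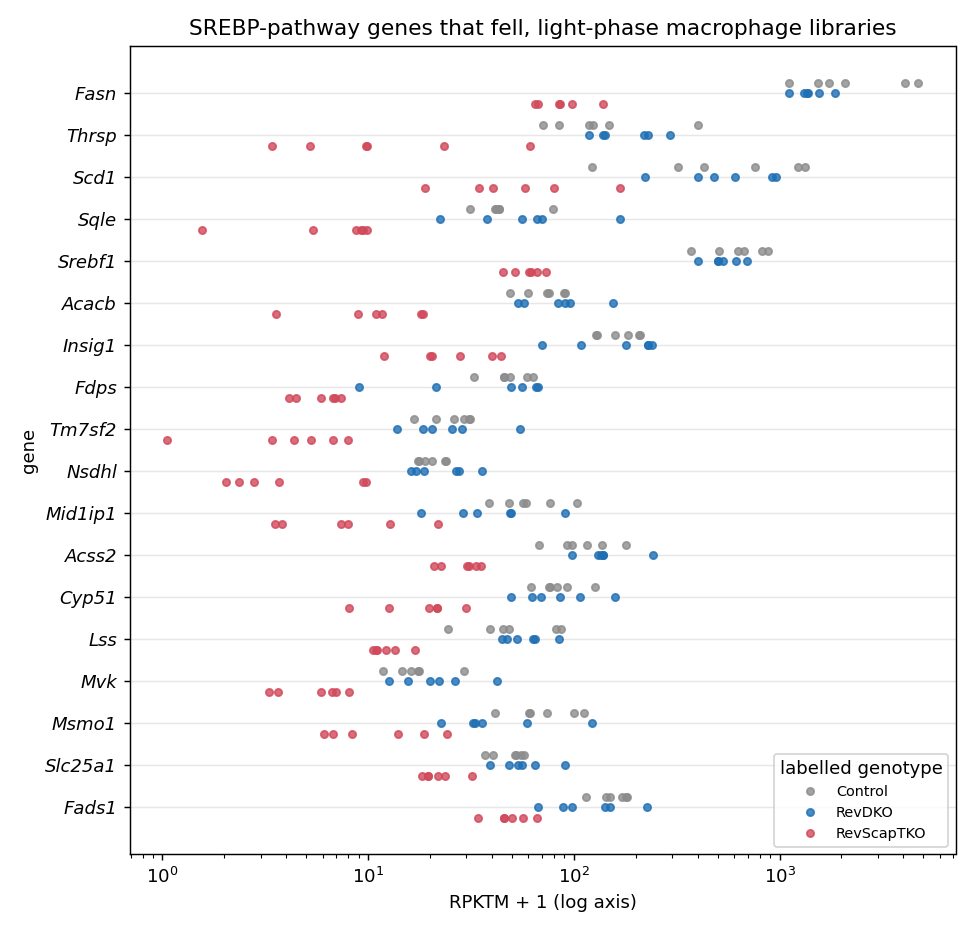
Level of 18 of the 21 SREBP-pathway genes that were lower in RevScapTKO, 1 row per gene and 1 point per light-phase macrophage library (horizontal axis, RPKTM + 1, log scale), with 6 libraries for each labelled genotype. RevDKO and Control points overlap for every gene shown, and RevScapTKO points lie to the left of RevDKO without overlap for 16 of the 18.

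The starts of these genes are shown because they fell together. RefSeq promoter sequences (build GRCm38.p6, the 250 bases before each annotated start) were matched by symbol for 14 of the 21 genes, and Sqle, Fdps, Scd1 and Fads1 were among those with no entry. A set of 3 short motifs were searched on both strands. The CCAAT box, bound by the SREBP partner NF-Y and written CCAAT or ATTGG, was present in 13 of the 14 genes, against 37.5% of the 27025 symbols in the table, counting any start of a gene. The sterol element TCACNCCA was present in 1 gene, Msmo1 (4.20% of symbols), and the E-box CACGTG in 2 genes, Insig1 and Slc25a1 (6.86% of symbols). These matches are descriptions of letters in a window, and factor binding was not measured here. The windows of 4 genes follow, 5′ to 3′ on the strand of the gene, with motif matches in capitals.
Fasn, chr11:120824548-120824797, minus strand: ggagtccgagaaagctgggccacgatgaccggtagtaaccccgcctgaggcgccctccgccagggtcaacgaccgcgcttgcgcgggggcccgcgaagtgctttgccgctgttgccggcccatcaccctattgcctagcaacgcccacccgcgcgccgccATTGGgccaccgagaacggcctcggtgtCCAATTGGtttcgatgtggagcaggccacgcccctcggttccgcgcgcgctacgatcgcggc
Insig1, chr5:28071162-28071411, plus strand: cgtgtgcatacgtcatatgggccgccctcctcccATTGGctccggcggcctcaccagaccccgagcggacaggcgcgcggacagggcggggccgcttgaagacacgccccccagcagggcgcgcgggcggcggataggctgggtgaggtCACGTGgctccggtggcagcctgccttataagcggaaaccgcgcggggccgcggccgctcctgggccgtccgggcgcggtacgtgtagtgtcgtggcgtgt
Lss, chr10:76531355-76531604, plus strand: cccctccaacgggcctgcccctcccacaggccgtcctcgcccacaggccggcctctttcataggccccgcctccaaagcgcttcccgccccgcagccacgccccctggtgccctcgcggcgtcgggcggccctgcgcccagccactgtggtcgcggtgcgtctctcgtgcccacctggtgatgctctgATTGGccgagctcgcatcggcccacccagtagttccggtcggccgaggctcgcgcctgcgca
Msmo1, chr8:64733579-64733828, minus strand: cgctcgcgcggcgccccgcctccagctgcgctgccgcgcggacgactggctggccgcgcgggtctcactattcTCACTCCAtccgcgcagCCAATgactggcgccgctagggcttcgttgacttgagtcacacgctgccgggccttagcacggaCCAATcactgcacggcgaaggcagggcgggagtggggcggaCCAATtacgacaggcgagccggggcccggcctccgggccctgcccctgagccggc
In the Fasn window a CCAAT and an ATTGG overlap by 2 bases, and 1 more match lies upstream of them.

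Genes outside the SREBP lists made up 49 of the 70 falls. Chrna4, a subunit of the nicotinic acetylcholine receptor, was at 13.2, 42.4 and 63.8 RPKTM in RevDKO and at 0, 0 and 0.055 in RevScapTKO libraries. Control libraries lay between, at 2.99 to 21.4 RPKTM, and overlapped RevDKO. The difference was -5.11 (SE 0.393, limma adjusted p = 2.73e-06) and varied from -8.30 to -2.17 over the settings tried, since nearly every RevScapTKO library was listed at 0. Mfsd2a, which transports lysophospholipids, fell by 3.11, and Inmt, an amine methyltransferase, fell by 3.22. Rpl29, a ribosomal protein with many near-identical copies in the genome, fell by 3.48, which is uncertain because reads may be shared with those copies.

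Most of the genes that changed were higher in hepatocytes than in macrophages. In Control libraries 2611 of the genes tested (21.2%) had a median at least 4-fold higher in the hepatocyte table than in the macrophage table, and they held 72 of the 93 called genes (77.4%), 59 of them falls and 13 rises. The tables were normalized separately, so this grouping is a description. The opposite group, 726 genes (5.91%) at least 4-fold higher in macrophages, held 2 called genes, Itgax and Pira2. In 2641 genes whose Control median was at least as high in macrophages as in hepatocytes there were 7 calls.

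Hepatocyte markers themselves moved in part. Of 16, 2 were lower, 0 were higher and the median difference was -0.32, with 7 at an unadjusted p under 0.05 and 4 lower without overlap. Over all 12293 genes tested, 1048 were at such a p and 92 (0.748%) lay lower without overlap. The median was 0.00 at ZT4 and -0.76 at ZT10, and it ran from -0.54 to -0.13 when 1 library at a time was left out, with -0.13 without RevScapTKO ZT10 replicate 1. Cps1, which starts the urea cycle, was at 4161, 5265 and 6769 RPKTM in RevDKO and at 1242, 2084 and 2734 in RevScapTKO libraries (-1.39, SE 0.235, limma adjusted p = 0.00814). Cyp2e1, an ethanol-oxidizing cytochrome P450, was at 1265, 2356 and 3558 against 452, 612 and 807 RPKTM (-1.95, adjusted p = 0.00102). Albumin differed by -0.35 (adjusted p = 0.86) and Apob by 0.28 (0.85). Markers of sinusoidal endothelial, stellate, bile duct, B, T or NK, neutrophil and erythroid cells held 0 called genes, and 4 of the 5 bile duct markers were too low to test. Of 12 sinusoidal endothelial markers, 9 were negative, with a median of -0.35. Of these 12, 5 had an unadjusted p under 0.05 and 1 lay lower without overlap. The other cell types in this group had 0 or 1 marker each at such a p.

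The 7 calls among genes at least as high in Control macrophages were 6 rises and 1 fall. Mmp12 (mm9 chr9:7347374-7360461, plus strand), the macrophage elastase, was at 2.85, 5.43 and 10.6 RPKTM in RevDKO and at 26.1, 53.7 and 117 in RevScapTKO macrophage libraries. Control libraries, at 2.58 to 23.6 RPKTM, lay with RevDKO, and RevScapTKO libraries lay above all of both. The difference was 3.19 (SE 0.391, limma adjusted p = 0.000501), and it passed in all 12 fits that left out 1 library. Hepatocyte libraries held less of it, with a median of 0.601 RPKTM in RevDKO and 7.89 in RevScapTKO. It was called higher there as well (2.28, SE 0.413, limma adjusted p = 0.00593).

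Gpnmb (mm9 chr6:48986517-49008181, plus strand), a glycoprotein of lipid-laden macrophages, was at 0.233, 1.28 and 2.98 RPKTM in RevDKO and at 9.83, 17.8 and 23.9 in RevScapTKO libraries, without overlap (2.88, SE 0.406, limma adjusted p = 0.00186). It also passed in all 12 fits that left out 1 library, but it met the filter on low values through RevScapTKO libraries alone. Itgax, which encodes CD11c, was at 3.48, 9.96 and 23.3 against 19.8, 35.8 and 78.9 RPKTM, so that the groups overlapped (1.86, SE 0.412, adjusted p = 0.0496). It passed in 2 of those 12 fits and had an adjusted p of 0.153 with the hepatocyte marker score as a covariate. These 3 genes were the called members among 13 lipid-associated macrophage genes, where 23 (0.187%) of all 12293 genes were called higher. The median difference of the 13 was 0.91 with 9 positive, where 6502 of all 12293 were positive. Their median was 0.26 at ZT4, 0.82 at ZT10 and 0.305 in the dark phase. Other members were Cd9 at 1.27 (adjusted p = 0.14), Trem2 at 1.05 (0.53), Spp1 at 0.91 (0.33) and Fabp5 at -0.73 (0.67).

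Pira2 (mm9 chr7:3788412-3796653, minus strand), an activating immunoglobulin-like receptor of myeloid cells, was the fall of this group, at 17.3, 28.8 and 44.3 RPKTM in RevDKO and at 0.547, 2.02 and 11.1 in RevScapTKO libraries (-3.06, SE 0.469, limma adjusted p = 0.00395). Its groups did not overlap, but it belongs to a family of near-identical receptors whose reads may have been split between copies. Abcc12, an ABC transporter, was at 0, 0.117 and 0.899 against 5.57, 20.8 and 75.7 RPKTM (4.06, adjusted p = 0.000794). Its medians over all Control libraries were 0 in both tables, so that its place in this group rests on a tie, and it differed by 4.99 in hepatocyte libraries (adjusted p = 0.000132). Cacna1e, a calcium channel subunit, differed by 2.67 (adjusted p = 0.0465) and Haus8, a subunit of a spindle complex, by 1.38 (0.0418), and these passed in 2 and 3 of the 12 fits that left out 1 library. Abcc12 and Cacna1e met the filter on low values through RevScapTKO libraries alone.

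**Figure D3:**
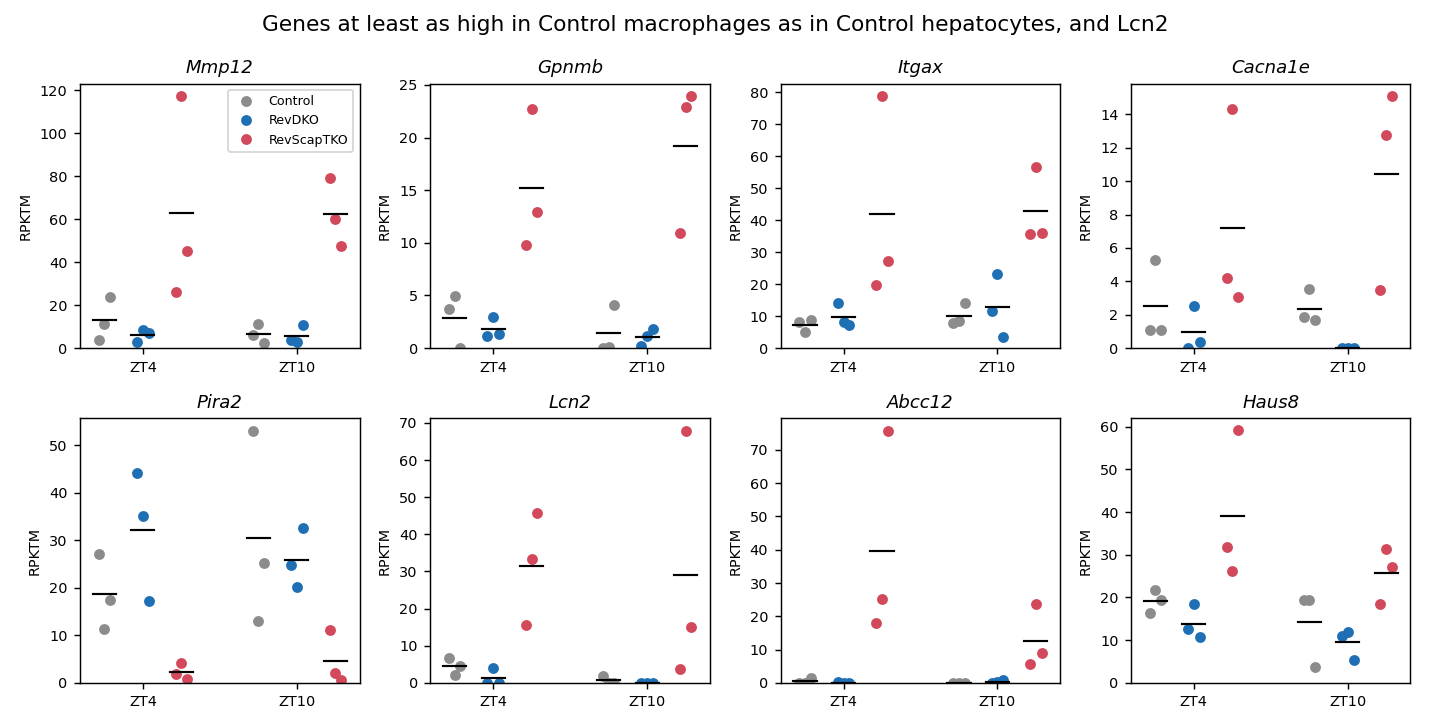
Level in each light-phase macrophage library (vertical axis, RPKTM, linear) of the 7 called genes that were at least as high in Control macrophages as in Control hepatocytes, and of Lcn2, by time and labelled genotype, with 3 points and a line at their mean per group. RevScapTKO points of Mmp12 and Gpnmb lie above all RevDKO points at both times, and those of Pira2 lie below them.

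Among the other rises the largest was Cyp2a4, a steroid-hydroxylating cytochrome P450, at 0, 0.758 and 4.29 RPKTM in RevDKO and at 17.2, 747 and 2321 in RevScapTKO libraries (7.61, SE 0.947, limma adjusted p = 0.000516). Its RevScapTKO libraries differed widely among themselves, and reads may be shared with its near-identical neighbour Cyp2a5, which differed by 0.45. Lcn2, lipocalin 2, an iron-sequestering acute phase protein, was at 0, 0 and 4.10 against 3.78, 24.5 and 67.8 RPKTM (4.12, SE 0.613, adjusted p = 0.0029). Neither Cyp2a4 nor Lcn2 had a RevDKO library over 5 RPKTM, so both met the filter on low values through RevScapTKO libraries alone. Apoa4, an apolipoprotein that rises in fatty liver, was at 213, 322 and 652 against 386, 4691 and 6258 RPKTM (3.21, adjusted p = 0.00814). Fgf21, a hormone of the stressed or fasted liver, was at 0, 4.08 and 6.88 against 5.35, 40.9 and 70.5 RPKTM (3.31, adjusted p = 0.0217), and it passed in 7 of the 12 fits that left out 1 library.

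Of the 23 tested genes on the chosen list of cytochrome P450 and glutathione S-transferase genes, 3 were higher (Cyp2a4, Gstm3 at 3.56 and Gstp1 at 1.19) and 2 were lower (Cyp4a10 at -2.43 and Gsta3 at -1.19), with a median of -0.38. The called P450 genes that are not on this list, Cyp2e1, Cyp51, Cyp2c50 (-1.86), Cyp2c54 (-1.77) and Cyp27a1 (-1.37), were all lower, and the Cyp2c copies may share reads. Gstp1 was at 55.2, 60.5 and 70.7 RPKTM in RevDKO and at 109, 144 and 191 in RevScapTKO libraries (limma adjusted p = 0.00771), without overlap. Of the 12 fits that left out 1 library, Gstp1 passed in 12, Gstm3 in 7, Cyp4a10 in 2 and Gsta3 in 1. Lcn2 was the 1 called gene of 13 acute phase genes and Fgf21 the 1 of 15 unfolded protein and integrated stress response genes. These 2 lists had 4 and 6 members at an unadjusted p under 0.05, beside 1048 of all 12293 genes.

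Lists of macrophage identity held 0 called genes with limma. The 16 Kupffer cell identity genes had a median of -0.38, which was -0.82 at ZT4, 0.02 at ZT10 and 0.37 in the dark phase, and ran from -0.69 to -0.12 when 1 library at a time was left out. None (0) had an unadjusted p under 0.05, and Cd163, a hemoglobin scavenger receptor, was at -0.62 (limma adjusted p = 0.726). The 9 monocyte-derived macrophage genes tested had a median of 0.66, with 4 at an unadjusted p under 0.05, beside 1048 of all 12293 genes. Among the 9 genes Ccr2, the receptor that draws monocytes into tissue, was at 6.24, 21.0 and 30.9 RPKTM in RevDKO and at 30.5, 44.5 and 73.5 in RevScapTKO libraries, which overlapped narrowly (1.25, SE 0.363, adjusted p = 0.186). F13a1, a monocyte transglutaminase, differed by 2.12 (adjusted p = 0.123).

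The 20 interferon-stimulated genes had 0 calls, and all 20 differences were positive, with a median of 0.79, where 6502 of all 12293 were positive. Oasl2, an antiviral 2′-5′ oligoadenylate synthetase-like gene, was at 23.3, 36.4 and 52.3 against 46.2, 65.9 and 136 RPKTM (0.98, SE 0.299, limma adjusted p = 0.23), and Rsad2 differed by 0.93 (0.315). The 20 genes share their libraries, so their common sign is not a count of independent observations. Of the 20, 8 had an unadjusted p under 0.05, beside 1048 of all 12293 genes. The 15 inflammatory genes tested had 0 calls and a median of 0.46, with 6 at an unadjusted p under 0.05. Among these 15, Nfkbiz was the 1 whose groups did not overlap (0.57, adjusted p = 0.514), beside 41 of all 12293 genes higher without overlap (0.334%). Phagocytosis (19 genes, median -0.24), MHC class II (10, 0.02), lysosome (20, 0.05), iron handling (13, -0.27), glycolysis (17, 0.12), cell cycle (16, 0.47) and LXR and sterol efflux genes (12, -0.20) had 0 calls, with 1 to 3 members each at an unadjusted p under 0.05. So had the 19 core clock genes, with a median of -0.28 and 3 at an unadjusted p under 0.05, and the 9 tested genes of ligands, receptors and factors that the study followed, among which Myc differed by 1.81 (adjusted p = 0.144).

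The 2 light-phase times gave fewer calls apiece, 25 (0.203%) at ZT4 and 19 (0.155%) at ZT10, with 15 falls at each. All 93 genes called over both times had the same sign at ZT4 and ZT10. The difference between the times was itself tested, and 0 genes (0%) were past the threshold, with 318 at an unadjusted p under 0.05. The smallest p belonged to Snrnp40 (ZT10 minus ZT4, 2.58), F9 (-3.40), Ces1c (-2.04), Ugt3a2 (-2.83) and Gtf2e2 (3.11), each with a limma adjusted p of 1.

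In the dark phase (ZT16 and ZT22, 6 against 6 libraries of the same table) the same contrast called 151 of the 12293 genes (1.23%). Of these 151, 138 were lower and 13 were higher (8.61% higher), so few rises of any kind were called in the dark. The sign was the same in the dark for 91 of the 93 light-phase genes, the exceptions being Afmid and Urad, and 40 of the 70 falls but 1 of the 23 rises were also called there. That rise was Mup20, a major urinary protein of hepatocytes. The SREBP lists had a median of -2.26 in the dark, with 33 of 46 lower, beside -1.47 and 21 in the light. Mmp12 differed by 1.60 in the dark (limma adjusted p = 0.312) and Gpnmb by 1.95 (0.16), while Pira2 differed by -3.08 (0.012).

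Tested directly, the light and dark differences were apart for 0 genes (0%) after adjustment and for 486 at an unadjusted p under 0.05. The smallest p belonged to Elovl6, a fatty acid elongase, which differed by -0.57 in the light and -3.84 in the dark (light minus dark 3.27, SE 0.653, limma adjusted p = 0.269). Me1, malic enzyme, which supplies NADPH for fatty acid synthesis, followed at -0.06 and -2.84 (2.78, SE 0.557, adjusted p = 0.269). Scd1 was at -3.35 and -5.92 (2.57, SE 0.577, adjusted p = 0.536). With a pseudocount of 10, Elovl6 and Me1 were past the threshold in this test (adjusted p = 0.00338 and 0.0188), and Me1 was past it without RevScapTKO ZT16 replicate 2 (0.0448).

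**Figure D4:**
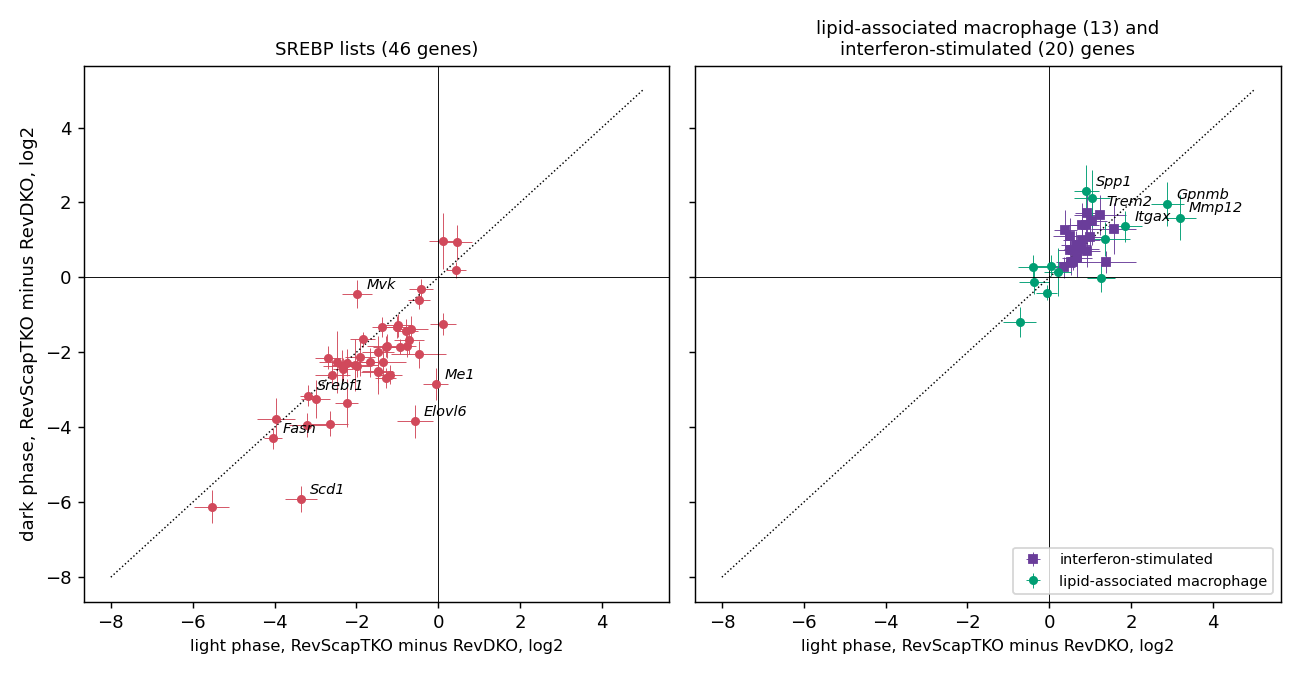
Difference (RevScapTKO minus RevDKO, log2(RPKTM + 1)) in the dark phase (vertical axis) against that in the light phase (horizontal axis) for 46 genes of the SREBP lists (left) and for 13 lipid-associated macrophage and 20 interferon-stimulated genes (right), with bars of 1 standard error and a dotted line of equal differences. Elovl6 and Me1 lie near 0 in the light and at -3.84 and -2.84 in the dark, and the interferon-stimulated genes lie above 0 on both axes.

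The hepatocyte libraries of the same genotypes and times gave 867 calls of 12661 genes (6.85%). Of the 93 genes called in macrophage libraries, 90 were tested there and 0 had the opposite sign. Among these, 59 of 69 falls and 17 of 21 rises were also called in hepatocytes. The SREBP lists had a median of -2.56 in hepatocyte libraries, with 37 of 46 lower. Fasn differed by -4.15 there and by -4.03 in macrophage libraries, Srebf1 by -3.81 and -3.18, and Scd1 by -8.36 and -3.35. Cyp2e1 differed by -0.99 there (limma adjusted p = 0.0571) and by -1.95 in macrophage libraries, and Cps1 by -0.57 (0.0918) and -1.39. How far RNA of hepatocytes in the macrophage libraries enters each of these differences was not tested. The fit with the hepatocyte marker score cannot decide it, because the score follows the amount of hepatocyte RNA and not its difference between genotypes.

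**Figure D5:**
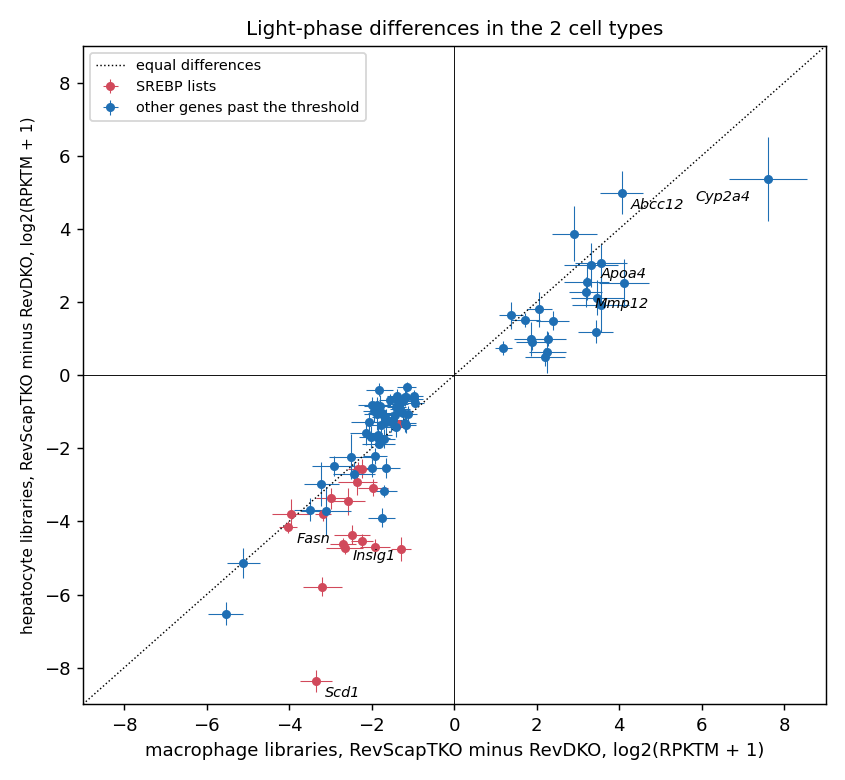
Light-phase difference in hepatocyte libraries (vertical axis) against that in macrophage libraries (horizontal axis), both RevScapTKO minus RevDKO on the log2(RPKTM + 1) scale, for the 90 called genes tested in both, with bars of 1 standard error and a dotted line of equal differences. No gene lies in the quadrants of opposite sign, and Scd1 lies furthest below the line of equal differences, at -8.36 and -3.35.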

How the data were processed

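Bulk RNA sequencing of isolated liver macrophages was analysed. After ribosomal RNA removal and stranded library preparation, the authors used STAR for alignment to mm9 and HOMER for levels of RefSeq transcripts. The deposited values are RPKM multiplied by 10 (RPKTM) and quantile normalized within a table of 36 macrophage libraries. Versions and the strand used in counting are not given in the sources used here. The normalization hides an overall shift and leaves the depth of each library unknown, so precision rests on the spread between libraries. Rn45s held 27.5% of the column sum in each of the 12 libraries. Quantile normalization gives a transcript of the same rank the same value in every library, so this constant share is not a measured level. Transcript starts matched mm9 annotation counted from 1 for 49.8% of transcripts.

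Each of 25095 gene symbols was represented by its transcript of highest mean and kept where at least 3 of the 12 libraries exceeded 5 RPKTM, leaving 12293 genes. Some called genes met this filter through 1 genotype alone. Among them were Gpnmb, Abcc12, Cacna1e, Cyp2a4, Lcn2 and Elovl7 through RevScapTKO libraries, and Chrna4 and Rpl29 through RevDKO libraries. Log2(RPKTM + 1) was fitted with limma 3.58.1 in R 4.3.3 (mean-variance trend, genotype and ZT, two-sided, Benjamini-Hochberg over all genes, threshold 0.05). The scale understates changes of low genes. The difference between times used 4 group means, that between light and dark 8. The script was tested on simulated data. Nothing in the labels says that replicates came from separate animals beyond the methods calling them biological replicates. Hepatocyte values come from a separately normalized table and the same fit. The comparison and the gene lists were chosen with earlier results of these data known.

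Genes named were the 7 genes of the SREBP activation machinery, the 10 largest rises and falls past the threshold with 1 sign at both times, the largest 8 of each at least as high in Control macrophages, up to 4 called members of each list (or the 2 of smallest p), and the 5 of smallest p in each test of a difference. Other genes named were chosen after their values were seen. Alternatives were pseudocounts of 0.1 and 10, no filter or at least 6 libraries over 10, all transcripts, a replicate block, all 36 libraries, the hepatocyte marker score as a covariate, and leaving out each library. A few called genes that the rule names are not reported here.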

Additional observations from a re-analysis of the deposited data

How the results depend on the processing

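All 93 called genes kept their sign in every alternative and left-out fit that tested them, and 25 were called in each such fit. The stricter filter left some called genes untested, among them Gpnmb and Abcc12, which are counted in the 25. Leaving out 1 library gave 56 to 133 calls over the light phase, 6 to 42 at ZT4, 5 to 18 at ZT10, 0 to 0 for ZT10 minus ZT4 and 0 to 1 for light minus dark. Without RevDKO ZT10 replicate 2, which stood apart, the light phase gave 90. Over the light phase the count left the range of 1.5 times the 93 calls without a filter on low values (46, with 25095 genes tested) and with the hepatocyte marker score as a covariate (171). It also left it without RevDKO ZT4 replicate 3 (56), RevDKO ZT10 replicate 3 (58), RevScapTKO ZT4 replicate 2 (61) or RevScapTKO ZT10 replicate 2 (56). It stayed within it with a pseudocount of 0.1 (64) or 10 (110), the stricter filter (71), all transcripts (120) and all 36 libraries (113). At ZT4 and ZT10 the counts were 10 and 8 with a pseudocount of 0.1, 9 and 8 without a filter, and 69 and 8 with the covariate, and ZT10 gave 31 with all transcripts. Light minus dark gave 2 calls with a pseudocount of 10. The cause was not tested. With a replicate block the light phase gave 74 calls, of which 67 were among the 93, ZT4 gave 12, ZT10 gave 8 and both tests of a difference gave 0. Deviations of same-numbered libraries correlated at 0.0674, 0.248 and 0.393 at ZT4 and at -0.211, 0.123 and -0.0927 at ZT10. At ZT4 each RevDKO library correlated best with the RevScapTKO library of its own number, and at ZT10 replicate 2 alone did. Whether libraries of the same number are pairs was not tested. The main fit used no block because the study methods use none. Depth is unknown, and genes listed at 0 RPKTM in 1 genotype have differences set largely by the pseudocount.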

Other observations

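Got1, the cytosolic aspartate aminotransferase, was at 122, 156 and 238 RPKTM (lowest, median and highest of 6 libraries) in RevDKO, at 41.1, 58.2 and 88.5 in RevScapTKO and at 59.2, 81.6 and 115 in Control macrophage libraries. RevDKO thus lay above both other genotypes for Got1. In hepatocyte libraries the contrast of RevScapTKO with RevDKO gave -1.23 for this gene.

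Ppard, a fatty acid sensing nuclear receptor, was at 60.0, 88.7 and 113 RPKTM in RevDKO, at 12.8, 27.6 and 40.6 in RevScapTKO and at 6.76, 8.65 and 24.4 in Control macrophage libraries. Its 3 genotypes were thus ordered with RevDKO highest, while RevScapTKO and Control overlapped. The difference between RevScapTKO and RevDKO was -1.70 (limma adjusted p = 0.00421) and in hepatocyte libraries -1.74 (0.00157). Srxn1, an antioxidant enzyme induced by oxidative stress, rose by 2.06 (adjusted p = 0.00277), from 16.4, 22.7 and 37.1 RPKTM in RevDKO to 47.9, 114 and 152 in RevScapTKO, with Control at 15.7, 25.1 and 55.5. Elovl7, an elongase of long fatty acids, was listed at 0, 0 and 0.32 RPKTM in RevDKO and at 2.64, 7.71 and 16.7 in RevScapTKO libraries.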
